A study of Homo sapiens with 24 samples.

Results

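The enzymes that cut and finish mitochondrial transfer RNAs were followed in 4 triple-negative breast cancer cell lines after knockdown of the RNA-editing enzyme ADAR1. The set held 5 genes, HSD17B10, TRMT10C, PRORP, ELAC2 and TRNT1, found by matching the Ensembl identifiers to these symbols among 37416 genes in each count file. HSD17B10 was chosen because its level was higher in the ADAR1 knockdown libraries of these same data, so its values are given as a description with no test. The other 4 genes were chosen by function. Total RNA libraries came from BT549, HCC1806, MDAMB231 and MDAMB468, all grown in the same medium. In each line the cells carried a lentiviral short hairpin against ADAR1 (shADAR1) or the control hairpin shNT, which gave 8 groups of 3 biological replicates, 24 libraries in all. The labels give a single name for the hairpin against ADAR1, so its own effects cannot be told apart from those of lower ADAR1. Infection lasted 24 h and was followed by 72 h of selection with 2 µg/ml puromycin, so the controls had also been infected and selected. The labels do not say whether the replicates were separate transductions. If they were not, the p-values measure a spread that may be partly technical.

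Mitochondrial DNA is transcribed into long RNAs in which transfer RNAs sit between the messenger and ribosomal RNAs, and cutting out the transfer RNAs releases the others. The 5′ cut is made by mitochondrial RNase P, an enzyme of proteins alone: TRMT10C binds the transfer RNA and methylates it, HSD17B10 is its structural partner, and PRORP is the nuclease. ELAC2 makes the 3′ cut, and TRNT1 adds the terminal CCA that aminoacylation needs. HSD17B10 is also a short-chain dehydrogenase that acts in isoleucine breakdown, so it belongs to 2 pathways.

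The hairpin lowered its target in every line. Levels are counts scaled to library size (CPM) with TMM factors. ADAR stood at 21.8% of its control mean in MDAMB231, 26.1% in BT549, 33.1% in HCC1806 and 37.1% in MDAMB468 (edgeR quasi-likelihood test, adjusted p between 6.83e-09 and 3.18e-05). Libraries held between 10370645 and 97218217 counts. The smallest was replicate 1 of MDAMB231 shNT, in which PRORP had 71 counts and HSD17B10 123. Epithelial markers (KRT8, KRT18, KRT19, EPCAM, CDH1) summed to between 0.724 and 1.24 CPM in BT549, to between 935 and 1162 in MDAMB231, and to at least 2547 in HCC1806 and MDAMB468. In BT549 each of these keratins had at most 0.894 CPM. Mesenchymal markers (VIM, FN1, ZEB1, SPARC) summed to between 6694 and 8880 CPM in BT549 and between 4607 and 6041 in MDAMB231. Their sums reached at most 306 CPM in HCC1806 and 105 in MDAMB468. MDAMB231 thus had keratins beside mesenchymal markers, with at most 0.375 CPM of CDH1, 10.9 of EPCAM and 1.66 of SPARC. No tested epithelial, mesenchymal, receptor, leukocyte or endothelial marker was called between hairpins in any line (edgeR), and CD3E had too few counts to test. ESR1 had 18 to 26.8 CPM in HCC1806 and 5.68 to 8.14 in MDAMB468, and at most 0.0355 in BT549 and 0.844 in MDAMB231. PGR reached at most 0.923 CPM, and ERBB2 lay between 69.8 and 118. CD68, a listed leukocyte marker, ran from 1.87 CPM in MDAMB468 to 99 in MDAMB231.

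The 5 genes lie on 4 chromosomes, and in the deposited annotation they have the same starts and ends as in GENCODE 29 (GRCh38). HSD17B10 (ENSG00000072506) lies on chromosome X from 53431258 to 53434373 on the minus strand, with 1115 exon bases in 6 exon intervals. TRMT10C (ENSG00000174173) lies on chromosome 3 from 101561862 to 101566446 on the plus strand, with 1888 exon bases. PRORP (ENSG00000100890) lies on chromosome 14 from 35121846 to 35277614 on the plus strand, with 6982 exon bases. ELAC2 (ENSG00000006744) lies on chromosome 17 from 12992391 to 13018187 on the minus strand, with 6345 exon bases. TRNT1 (ENSG00000072756) lies on chromosome 3 from 3126916 to 3150879 on the plus strand, with 5518 exon bases. PRORP shares 2858 of its exon bases with ENSG00000258790, a gene of the same strand that had 0 to 6 counts per library, and 350 with PPP2R3C on the other strand. TRNT1 shares 512 with CRBN on the other strand. Reads on bases shared on the same strand cannot be told apart, so the absolute level of PRORP is uncertain. For the overlaps with PPP2R3C and CRBN this depends on whether the counting used strand, which is not given in the sources used here. HSD17B10, TRMT10C and ELAC2 share no exon base with another gene.

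The sequences before the start sites of HSD17B10, the member that was higher, and of its complex partner TRMT10C, which was not called, are shown because the level of the first moved apart from that of the second. Both come from the RefSeq table (GRCh38.p14), read 5′ to 3′ on the gene's own strand, and all 5 members had an entry. The HSD17B10 window is chrX:53434377-53434626 (minus strand) and the TRMT10C window chr3:101561618-101561861 (plus strand). Capitals mark matches on either strand to 5 motifs, each searched by these letters alone: CCAAT for the CCAAT box, CCGGAAG for ETS factors, GGGCGG for the GC box, TGACGT for the cAMP response half-site and CACGTG for the E-box.
HSD17B10: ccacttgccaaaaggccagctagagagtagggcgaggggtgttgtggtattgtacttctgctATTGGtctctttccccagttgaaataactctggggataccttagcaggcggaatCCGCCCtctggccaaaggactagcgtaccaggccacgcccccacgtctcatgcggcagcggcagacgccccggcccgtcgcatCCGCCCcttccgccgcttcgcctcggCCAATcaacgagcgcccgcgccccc
TRMT10C: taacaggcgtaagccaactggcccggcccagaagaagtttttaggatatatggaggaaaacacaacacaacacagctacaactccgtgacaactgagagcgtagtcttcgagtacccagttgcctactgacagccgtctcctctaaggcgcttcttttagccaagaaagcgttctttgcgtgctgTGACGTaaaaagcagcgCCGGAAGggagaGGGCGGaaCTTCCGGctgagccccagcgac
The HSD17B10 window holds 2 matches to CCAAT and 2 to GGGCGG, and no match to the other 3 motifs. The TRMT10C window holds 2 matches to CCGGAAG, 1 to GGGCGG and 1 to TGACGT, and none to CCAAT. Matches do not overlap each other in these 2 windows. The 250 bases before the RefSeq start of ELAC2, also not called, hold 2 matches to CCAAT, 2 to GGGCGG and 3 to CCGGAAG. Those of TRNT1 hold 1 to GGGCGG and 2 to TGACGT, and those of PRORP none to these motifs. Among 34788 distinct RefSeq windows of 250 bases, 32% hold CCAAT, 42.6% GGGCGG, 8.5% CCGGAAG, 7.09% TGACGT and 6.31% CACGTG. These are letter matches, and binding was not measured.

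HSD17B10 was higher with shADAR1 in all 4 lines, and the size differed from line to line. In MDAMB231 the shADAR1 libraries had 35.5, 42 and 31.4 CPM and the shNT libraries 11.4, 12.8 and 13.5. The lowest knockdown library there was above the highest control by a wide margin, and the group mean stood at 289% of control (log2 fold change 1.52, SE 0.133). In BT549 the values were 61.2, 74.5 and 57.2 CPM against 29.2, 27.3 and 33.4. This line had the highest HSD17B10 level of the series with shADAR1, 215% of its control (log2 fold change 1.10, SE 0.126). In MDAMB468 they were 47.6, 55.4 and 55.1 CPM against 33.8, 42.4 and 40.3, or 136% of control (log2 fold change 0.44, SE 0.126). In HCC1806 they were 36.2, 37.6 and 37.4 CPM against 24.9, 29.7 and 31.1, or 130% of control (log2 fold change 0.37, SE 0.126). The groups did not overlap in any line, though in MDAMB468 and HCC1806 the gap between the nearest libraries was narrow. Averaged over the lines the log2 fold change was 0.86 (SE 0.0637), a 1.81-fold difference.

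All shADAR1 libraries above all shNT libraries was a pattern of 4.38% of the 21352 genes tested in HCC1806, 6.69% in MDAMB468, 7.19% in MDAMB231 and 8.24% in BT549. It held in all 4 lines at once for 21 genes (0.0984%), HSD17B10 among them. Since this contrast chose HSD17B10, nothing is read from its place among them. Set beside the knockdown, the lines with the least ADAR left, MDAMB231 (21.8%) and BT549 (26.1%), were those with the larger HSD17B10 difference. HCC1806 (33.1% of ADAR left) and MDAMB468 (37.1%) had the smaller ones, in the opposite order to each other. With 4 lines this order was not tested.

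Across the 8 groups HSD17B10 ran from a mean of 64.3 ± 9.03 CPM (SD, n = 3) in BT549 shADAR1 to 12.6 ± 1.1 in MDAMB231 shNT, a 5.12-fold range. MDAMB468 shADAR1 followed BT549 shADAR1 with 52.7 ± 4.41 CPM, and the library ranges of these top groups did not overlap with each other or with any group under them. The next 3 groups were MDAMB468 shNT (38.8 ± 4.5), HCC1806 shADAR1 (37 ± 0.769) and MDAMB231 shADAR1 (36.3 ± 5.36), whose ranges overlapped. BT549 shNT (29.9 ± 3.14) overlapped with MDAMB231 shADAR1 above it and with HCC1806 shNT (28.5 ± 3.25) under it. MDAMB231 shNT stood alone at the bottom. MDAMB231 shADAR1 thus overlapped with MDAMB468 shNT, whose mean was 3.09-fold that of MDAMB231 shNT.

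**Figure D1:**
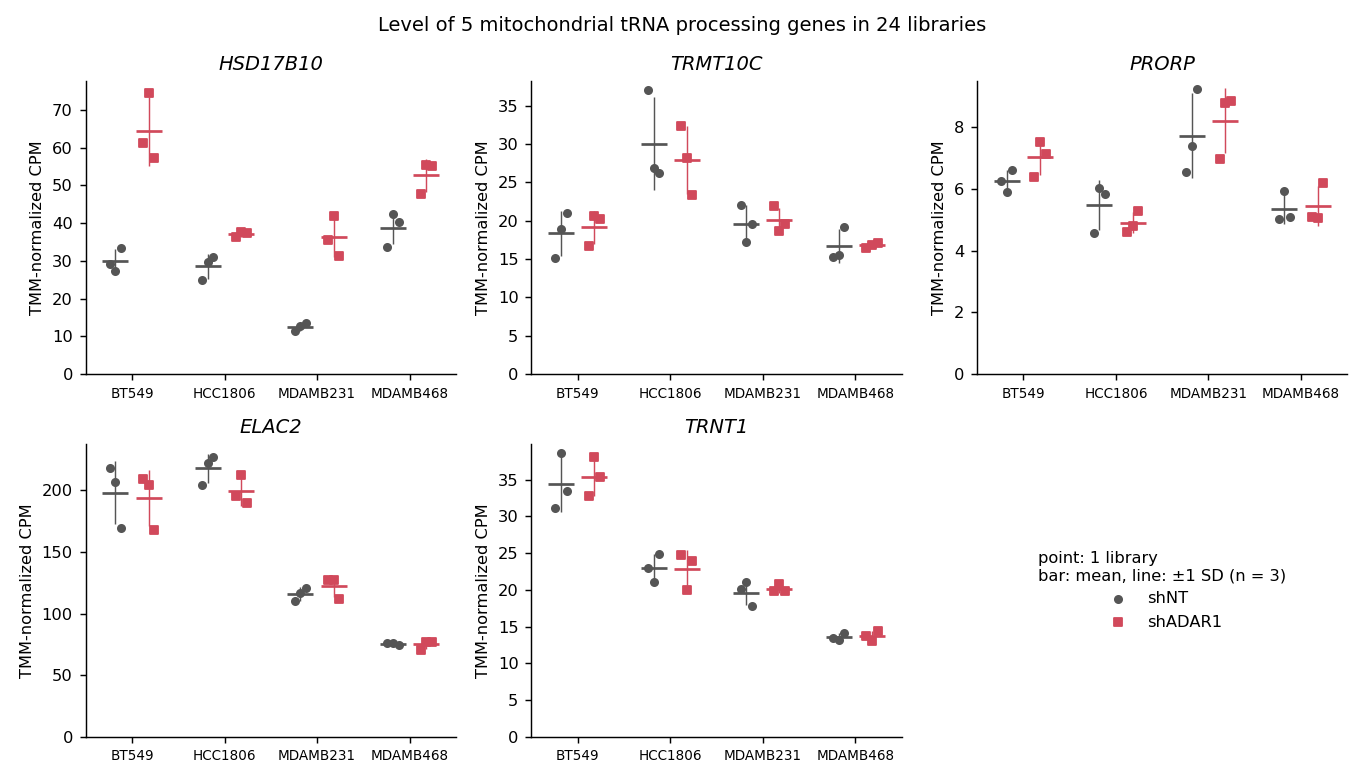
TMM-normalized CPM (vertical axes, each from 0) of the 5 genes in each of 24 libraries, by cell line (horizontal axis) and hairpin; short bars are means and vertical lines ±1 SD of 3 libraries. HSD17B10 is higher in each shADAR1 group with no overlap, while the 4 other genes overlap between hairpins in every line and differ mainly between lines.

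The partners of HSD17B10 were not called. None of TRMT10C, PRORP, ELAC2 and TRNT1 was called in any line, where called means an edgeR adjusted p under 0.05 over all genes tested (0 of 4 each time). The background of called genes was 2.01% in MDAMB231, 0.473% in BT549, 0.0468% in HCC1806, 0.0375% in MDAMB468 and 2.96% for the average of the lines. At these shares most sets of 4 genes would also have 0 called, so the count alone says little about the partners. None of the 4 had an unadjusted edgeR p under 0.05 either, the smallest being 0.195 (ELAC2 in HCC1806). DESeq2 also called 0 of 4 throughout. By line, 803 (MDAMB468), 929 (HCC1806), 1370 (BT549) and 2501 (MDAMB231) of the 21352 genes tested had an unadjusted p under 0.05. DESeq2 called between 42 and 812 genes per line. Most genes thus passed neither rule in a given line, so these counts also say little about the partners. No partner's groups were separated in any line. Over all genes, shADAR1 lay wholly above shNT for the shares given above. It lay wholly below for 3.2% of genes in HCC1806, 4.3% in MDAMB468, 6.43% in BT549 and 7.01% in MDAMB231. Most genes thus overlapped between hairpins, so the overlap of the partners also says little about them. Few genes of any kind were called in HCC1806 and MDAMB468.

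TRMT10C, the methyltransferase that forms a tight complex with HSD17B10, overlapped between hairpins in each line. In MDAMB231, where HSD17B10 differed most, its levels were 21.9, 18.7 and 19.6 CPM with shADAR1 and 22, 17.2 and 19.6 with shNT. The log2 fold change was 0.04, with a 95% interval from -0.28 to 0.36 (edgeR adjusted p = 0.997). In BT549 the levels were 16.7, 20.6 and 20.2 CPM against 15.2, 18.9 and 21 (log2 fold change 0.06, interval -0.25 to 0.38). The libraries of the hairpins were interleaved in both lines. In HCC1806 TRMT10C had 32.3, 28.2 and 23.4 CPM against 37.1, 26.9 and 26.2, the widest spread between replicates of any of its groups (log2 fold change -0.10, interval -0.41 to 0.21). In MDAMB468 it had 16.5, 16.8 and 17.1 CPM against 15.3, 15.6 and 19.2 (log2 fold change 0.01, interval -0.31 to 0.32). Averaged over the lines the log2 fold change was 0.00 (interval -0.16 to 0.16, edgeR adjusted p = 1).

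PRORP, the nuclease, had the fewest counts of the 5 genes and the widest intervals. In BT549 it had 6.4, 7.54 and 7.13 CPM with shADAR1 against 6.25, 5.9 and 6.61 with shNT, the partners' largest difference upward (log2 fold change 0.17, interval -0.16 to 0.50). In HCC1806 the values were 4.62, 4.81 and 5.3 CPM against 4.57, 6.05 and 5.85, the partners' largest difference downward (log2 fold change -0.17, interval -0.51 to 0.17). The groups overlapped in both lines. In MDAMB231 it had 6.99, 8.8 and 8.84 CPM against 6.55, 7.41 and 9.24 (log2 fold change 0.08, interval -0.26 to 0.42). In MDAMB468 it had 5.11, 5.06 and 6.19 CPM against 5.04, 5.93 and 5.09 (log2 fold change 0.03, interval -0.31 to 0.37). The average over the lines was 0.03 (interval -0.14 to 0.20).

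ELAC2, the 3′ nuclease, was the most counted partner and gave the narrowest intervals. Its values in BT549 were 209, 204 and 168 CPM with shADAR1 against 218, 207 and 169 (log2 fold change -0.03, interval -0.23 to 0.16). In MDAMB231 they were 127, 127 and 112 CPM against 110, 117 and 121 (log2 fold change 0.07, interval -0.13 to 0.27). The knockdown and control libraries were interleaved in both. In HCC1806 they were 195, 212 and 190 CPM against 204, 222 and 227, with the highest knockdown library above the lowest control (log2 fold change -0.13, interval -0.32 to 0.07). In MDAMB468 they were 70.7, 76.8 and 77.3 CPM against 75.9, 75.8 and 74.4 (log2 fold change -0.01, interval -0.21 to 0.19). The average was -0.02 (interval -0.12 to 0.07).

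TRNT1, the CCA-adding enzyme, had 32.8, 38.1 and 35.3 CPM in BT549 shADAR1 and 31.1, 38.6 and 33.4 in BT549 shNT (log2 fold change 0.04, interval -0.18 to 0.26). In MDAMB231 it had 19.9, 20.8 and 19.8 CPM against 20.1, 21 and 17.8 (log2 fold change 0.04, interval -0.19 to 0.27). Neither line separated the hairpins. In HCC1806 it had 24.8, 20 and 23.9 CPM against 23, 21.1 and 24.9 (log2 fold change -0.00, interval -0.23 to 0.22), and in MDAMB468 13.7, 13 and 14.4 against 13.5, 13.2 and 14.1 (log2 fold change 0.00, interval -0.22 to 0.23). The average was 0.02 (interval -0.09 to 0.13). None of the 4 partners was called for a different response between lines by the joint edgeR test, where 0.0234% of all genes were. In that comparison 0 of the 4 had an unadjusted p under 0.05, beside 947 of 21352 genes. DESeq2 called 0 of the 4 there, beside 125 of all genes.

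**Figure D2:**
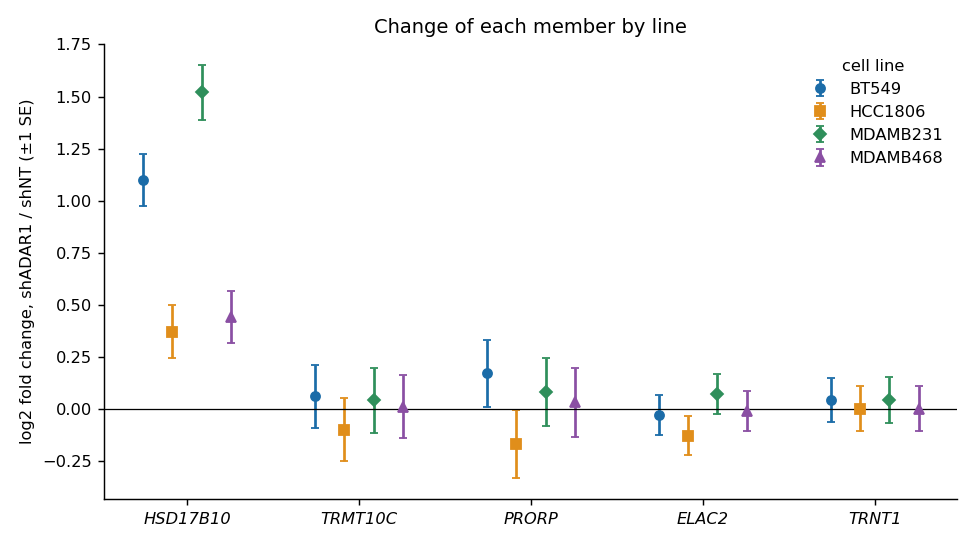
Log2 fold change of shADAR1 over shNT (vertical axis, ±1 SE from edgeR) for the 5 genes (horizontal axis), with 1 point per cell line. HSD17B10 lies between 0.37 and 1.52, while the 16 points of the 4 partners lie between -0.17 and 0.17.

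Relative to its partners, HSD17B10 RNA was more abundant with shADAR1. Per kilobase of exon, HSD17B10 had 2.79 ± 0.41 times the CPM of TRMT10C in BT549 shNT and 5.7 ± 0.794 times in BT549 shADAR1 (SD, n = 3 each). In MDAMB231 the ratio was 1.1 ± 0.203 with shNT, near equal levels, and 3.09 ± 0.628 with shADAR1. In MDAMB468 it was 3.97 ± 0.565 and 5.32 ± 0.368. In these 3 lines the libraries of the hairpins did not overlap. In HCC1806 the ratios were 1.67 ± 0.469 and 2.28 ± 0.403, and they overlapped, with a range of 1.14 to 2.01 for shNT and 1.9 to 2.7 for shADAR1. The ratio to ELAC2 went from 0.878 ± 0.213 to 1.89 ± 0.212 in BT549, from 0.615 ± 0.0265 to 1.69 ± 0.168 in MDAMB231, from 0.746 ± 0.0445 to 1.06 ± 0.0561 in HCC1806 and from 2.93 ± 0.351 to 4 ± 0.144 in MDAMB468. The mean ratio was thus below 1 in the controls of BT549, HCC1806 and MDAMB231 and above 1 in all 4 knockdown groups, though replicate 3 of BT549 shNT had 1.12. These ratios carry the HSD17B10 difference that chose it and are given with no test. They compare transcripts, and protein was not measured.

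**Figure D3:**
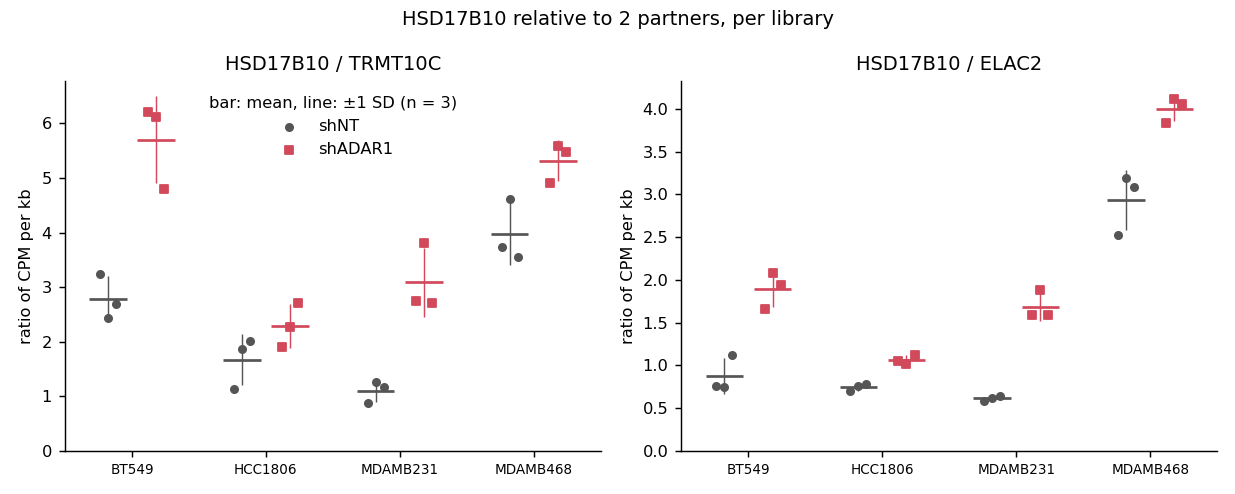
Ratio of HSD17B10 to TRMT10C (left) and to ELAC2 (right), each in CPM per kilobase of exon (vertical axes from 0), in each library by cell line (horizontal axis) and hairpin; bars are means and lines ±1 SD of 3 libraries. The ratio to ELAC2 separates the hairpins in every line, and the ratio to TRMT10C in all but HCC1806.

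The partners differed between cell lines by more than between hairpins. Their highest shNT mean over the lowest was 2.88 for ELAC2, 2.52 for TRNT1, 1.8 for TRMT10C and 1.44 for PRORP. Under shNT all 4 were called in the joint edgeR test over the lines, against a background of 85.9% of genes, so this share is near what most genes show. Between single pairs of lines the background was 56.5% (MDAMB231 and BT549), 59% (MDAMB231 and HCC1806), 61% (MDAMB468 and BT549), 61.8% (MDAMB468 and MDAMB231), 62.9% (MDAMB468 and HCC1806) and 63.5% (HCC1806 and BT549). ELAC2 had the widest range, 217 ± 12.1 CPM in HCC1806, 198 ± 25.8 in BT549, 116 ± 5.28 in MDAMB231 and 75.3 ± 0.855 in MDAMB468 (SD, n = 3 each; joint edgeR adjusted p = 1.92e-12). HCC1806 and BT549 did not differ beyond their spread (edgeR adjusted p = 0.228), BT549 was 1.7-fold above MDAMB231 (edgeR adjusted p = 3.05e-07), and MDAMB231 was 1.54-fold above MDAMB468 (edgeR adjusted p = 5.31e-06). TRNT1 was highest in BT549 with 34.4 ± 3.8 CPM, followed by HCC1806 with 23 ± 1.94, MDAMB231 with 19.6 ± 1.65 and MDAMB468 with 13.6 ± 0.467 (joint edgeR adjusted p = 9.72e-10). Its steps from BT549 to HCC1806 (1.5-fold, edgeR adjusted p = 5.35e-05) and from MDAMB231 to MDAMB468 (1.44-fold, edgeR adjusted p = 0.000242) passed the test. The step between HCC1806 and MDAMB231 did not (edgeR adjusted p = 0.0776).

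TRMT10C was highest in HCC1806 with 30.1 ± 6.11 CPM, 1.54-fold above MDAMB231 with 19.6 ± 2.39 (edgeR adjusted p = 0.00138). MDAMB231, BT549 (18.4 ± 2.93) and MDAMB468 (16.7 ± 2.15) followed with no step between neighbours past the test (edgeR adjusted p = 0.686 and 0.452; joint adjusted p = 7.49e-05). PRORP ran from 7.73 ± 1.37 CPM in MDAMB231 through 6.25 ± 0.353 in BT549 and 5.49 ± 0.802 in HCC1806 to 5.35 ± 0.499 in MDAMB468, and no neighbours differed beyond their spread (edgeR adjusted p = 0.103, 0.353 and 0.844). Its joint test passed with an edgeR adjusted p of 0.0154. That call was lost without replicate 3 of MDAMB231 shNT (edgeR adjusted p = 0.164) and without a filter on low counts (0.066). Among the shNT groups, MDAMB468 had the lowest mean of each of the 4 partners and the highest mean of HSD17B10.

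Per kilobase of exon, the shNT means of HSD17B10 lay between 11.3 and 34.8 CPM, those of ELAC2 between 11.9 and 34.2, and those of TRMT10C between 8.83 and 15.9. TRNT1 was lower, between 2.47 and 6.23, and PRORP lowest, between 0.767 and 1.11, with the shared bases named above counted in its length. Among the 5 genes, the profiles of ELAC2 and TRNT1 over the 8 groups were most alike (root mean square difference of centred log2 CPM 0.30). HSD17B10 was 0.77 to 0.90 away from each of the other 4, and the pairs among those 4 were 0.30 to 0.65 apart. The median distance over 12185 genes was 0.85 from HSD17B10, 0.60 from TRMT10C, 0.58 from PRORP, 0.79 from ELAC2 and 0.70 from TRNT1. The HSD17B10 profile carries the difference that chose it, so its distances are given with no test.

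Over the 8 groups, the gene whose profile was nearest to HSD17B10 was NUDT19, at a root mean square difference of 0.24, where the median over 12185 genes was 0.85. NUDT19 had log2 fold changes of 1.00 in MDAMB231, 0.78 in BT549, 0.37 in HCC1806 and 0.24 in MDAMB468. ARV1 and KRBOX4 followed, both at 0.38. By the 4 line fold changes alone, DYNLRB1, a dynein light chain, was nearest at 0.11, with log2 fold changes of 1.33, 1.03, 0.43 and 0.50 in the same order, and then KATNAL1 at 0.24 and EDN1 at 0.25. The partners' nearest profiles were closer to them than this: ZNF384 to TRMT10C (0.04), BCAP29 to PRORP (0.07), ZC3H3 to ELAC2 (0.06) and DAPK3 to TRNT1 (0.05). These distances are over 8 groups, or 4 lines, that share their libraries, and are descriptions.

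The genes next to HSD17B10 on chromosome X were not called. RIBC1 ends 138 bases from it on the other strand and had log2 fold changes of 0.45 in MDAMB231, 0.13 in BT549, -0.35 in HCC1806 and -0.23 in MDAMB468, at group means of at most 2.38 CPM. SMC1A, a cohesin subunit 8530 bases away, had -0.15, -0.06, 0.03 and -0.04 in the same order. None of the tested genes within 10 kb of the other members was called in a line or in the average either, beside the called shares given above. Some were separated without a call, beside the shares of all genes separated in each line given above. With shADAR1, SMC1A was lower in MDAMB231 and MDAMB468, PCNP in MDAMB231 and PPP2R3C in MDAMB468. PSMA6 was higher in MDAMB231, ARHGAP44 in HCC1806 and CRBN in BT549. The unadjusted edgeR p was under 0.05 for PSMA6 in MDAMB231 (log2 fold change 0.35) and FAM177A1 in the average (0.12). The shares of all genes under 0.05 were 11.7% in MDAMB231 and 12.8% in the average.

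Genes of the wider machinery for mitochondrial and nuclear precursor RNA were called at a share near the background. Over 5 lists, 2 of 90 tested genes (2.22%) were called in the average of the lines, where 2.96% of all genes were. Other rules called more genes overall. For the average, MDAMB231, BT549 and HCC1806 in turn, a fit blocked on replicate number called 7.25%, 5.09%, 2.48% and 1.47% of all genes higher, and 5.96%, 6.33%, 2.66% and 0.632% lower. DESeq2 called 4.94% of all genes in the average and 3.8% in MDAMB231. An unadjusted p under 0.05 was found for 12.8% of all genes in the average, 11.7% in MDAMB231 and 4.35% in HCC1806. The counts by these rules are to be read against those shares. These lists and the members were put together with earlier results of these data known. Of 22 genes that modify mitochondrial transfer RNAs, 0 were called by edgeR in any line or in the average, where the median log2 fold change was -0.00 against 0.02 for all genes. In the average 2 had an unadjusted p under 0.05, both higher, and DESeq2 called 0. GTPBP3, which acts on the wobble uridine, had the smallest p (average log2 fold change 0.12, edgeR adjusted p = 0.342). In MDAMB231 4 of the 22 were higher at an unadjusted p under 0.05 and DESeq2 called 1 (YRDC). With the replicate number as a block, 4 were called higher in MDAMB231 (GTPBP3, METTL8, RPUSD4, YRDC) and 1 in the average (GTPBP3). Among 14 genes of mitochondrial transcription and DNA replication, 0 were called and 1 had an unadjusted p under 0.05 in the average. TFAM, which packages mitochondrial DNA, had 0.13 there (edgeR adjusted p = 0.345), and POLG, the DNA polymerase, 0.30 in MDAMB231 (edgeR adjusted p = 0.0681). DESeq2 called POLG in MDAMB231. The block called TFAM in the average and both in MDAMB231.

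PDE12, a nuclease that removes poly(A) tails in mitochondria, fell in the average of the lines, with a log2 fold change of -0.19 (edgeR adjusted p = 0.00564). It was the only one called of 20 genes of mitochondrial RNA granules and RNA decay. Its libraries had 47.6, 46.7 and 46 CPM with shADAR1 against 57.4, 56.6 and 55.7 in BT549, and 68, 75.5 and 72.2 against 90.9, 85.8 and 84.2 in MDAMB231. The hairpins were separated in these lines and overlapped in HCC1806 and MDAMB468. The call was lost without a filter on low counts (edgeR adjusted p = 0.0529). The block called 3 of the 20 lower in the average (PDE12, ERAL1, DHX30), where it called 5.96% of all genes lower. LARS2, the mitochondrial leucyl-tRNA synthetase, was the only one called of 22 aminoacylation genes, with an average log2 fold change of -0.19 (edgeR adjusted p = 0.0492). It lay next to the threshold and lost the call in 19 of 24 fits that each left out 1 library. The block called 3 of these 22 higher (GATB, VARS2, WARS2) and 2 lower (IARS2, LARS2) in the average. Its shares over all genes there were 7.25% higher and 5.96% lower. Nuclear RNase P and MRP, which process nuclear precursors with an RNA subunit, had 12 genes tested and 0 called (1 with an unadjusted p under 0.05 in the average, 0 by DESeq2). RPP38 had the smallest p (0.17, edgeR adjusted p = 0.249), and the block called POP7 lower in the average. Within MDAMB231 the block called 2 higher and 1 lower of these 12, 2 higher and 3 lower of the aminoacylation genes, and 1 higher and 2 lower of the granule and decay genes. Over all genes it called 5.09% higher and 6.33% lower in that line. In the other lines it called PDE12 lower in BT549 and GARS1 higher in HCC1806.

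**Figure D4:**
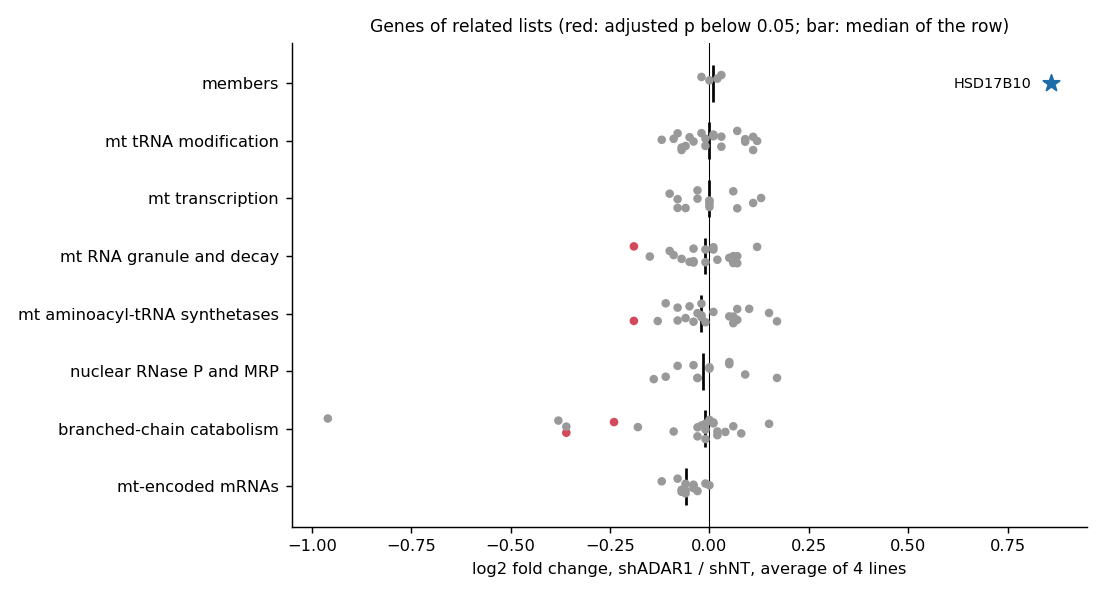
Log2 fold change of shADAR1 over shNT averaged over the 4 lines (horizontal axis) for each tested gene of 7 lists and for the members (rows), with vertical jitter only; black bars are row medians, and in the top row the median is of the 4 partners without HSD17B10. HSD17B10 (star) lies at 0.86; the called genes (red) are PDE12, LARS2, MCCC2 and IVD, all below 0.

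The substrates of the enzymes can be seen in part. Most of the 13 messenger RNAs of mitochondrial DNA are released by these cuts, and 0 of 13 were called in any line or the average by edgeR or DESeq2. Their median log2 fold change was -0.16 in MDAMB231, -0.03 in HCC1806, -0.00 in BT549 and 0.01 in MDAMB468. All 13 were below 0 in MDAMB231, between -0.29 and -0.10, and 2 of them had an unadjusted p under 0.05 there, beside 11.7% of all genes. They are cut from shared long RNAs, so their common sign is not 13 separate observations. MT-ND4, a complex I subunit, had 8137, 6949 and 7587 CPM with shADAR1 in that line. With shNT it had 7978, 8729 and 10139, with overlapping groups (log2 fold change -0.24, edgeR adjusted p = 0.383). Of 22 mitochondrial transfer RNAs, 6 had enough counts to be tested and 0 were called (0 with an unadjusted p under 0.05 in any line, 0 by DESeq2). MT-TP, the transfer RNA for proline, had the most counts and is named after its values were seen, with group means of 16.2 to 39.8 CPM. Its log2 fold changes were -0.11 in MDAMB231, 0.19 in BT549, 0.03 in HCC1806 and -0.01 in MDAMB468, with overlapping groups. The other 5 tested had group means of at most 1.16 CPM (MT-TY). The files hold 1 count per gene, so processed and unprocessed RNA were not told apart. Ribosomal RNA was depleted in library preparation, and neither of the 2 mitochondrial ribosomal RNAs was called, at group means of 1.57 to 138 CPM (both had an unadjusted p under 0.05 in HCC1806, lower).

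Some genes of the other pathway of HSD17B10 fell. Of 22 genes of branched-chain amino acid breakdown, 2 were called lower and 0 higher in the average of the lines (edgeR; background 1.7% lower and 1.26% higher), with a list median of -0.01 against 0.02 for all genes. MCCC2, a subunit of the leucine pathway's methylcrotonyl-CoA carboxylase, had 30.1, 35.2 and 37 CPM with shADAR1 against 50.1, 47.9 and 53.9 with shNT in MDAMB231, with no overlap (log2 fold change -0.57, edgeR adjusted p = 0.00249). In BT549 it had 67.5, 64.8 and 67.3 CPM against 89.3, 97 and 80.4, also separated, which did not pass the test there (edgeR adjusted p = 0.0708). Its average was -0.36 (edgeR adjusted p = 9.53e-05). IVD, the isovaleryl-CoA dehydrogenase of the same leucine pathway, also fell in the average, with -0.24 (edgeR adjusted p = 0.00742). BCAT2, the mitochondrial transaminase at the head of the pathway, was called higher in MDAMB231 (background 0.637% higher and 1.37% lower there), with 53.1, 64.7 and 54.5 CPM against 39, 48.5 and 40.5 (log2 fold change 0.43, edgeR adjusted p = 0.0302). That call was lost without replicate 2 of MDAMB231 shADAR1, replicate 1 of its shNT or replicate 3 of its shNT (edgeR adjusted p = 0.151, 0.157 and 0.152). With the block (background 7.25% higher and 5.96% lower in the average, 5.09% and 6.33% in MDAMB231), 1 of the 22 was called higher and 4 lower in the average, 2 higher and 5 lower in MDAMB231, and 2 lower in each of BT549 and HCC1806. DESeq2 called 3 lower in the average (ALDH6A1, IVD, MCCC2). MCCC2 and IVD act on leucine, whereas the HSD17B10 step belongs to isoleucine.

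Few genes related in sequence to the members were called, as for all genes. Over all genes edgeR called 2.96% in the average, and 12.8% had an unadjusted p under 0.05 there. DESeq2 called 4.94% in the average, and the block called 5.96% lower. In MDAMB231 edgeR called 0.637% of all genes higher and 1.37% lower. Of 11 other HSD17B genes, a family of hydroxysteroid and fatty acyl dehydrogenases, 0 were called in the average (1 with an unadjusted p under 0.05, 0 by DESeq2, and HSD17B12 by the block). HSD17B12, an enzyme of fatty acid elongation, was lower in MDAMB231, with 27.1, 51.8 and 39.8 CPM against 66.9, 76 and 59.2 (log2 fold change -0.76, edgeR adjusted p = 0.0283). The call was lost on leaving out any of 4 libraries of that line, replicates 1 and 3 of shADAR1 or 1 and 2 of shNT (edgeR adjusted p = 0.218, 0.0791, 0.0749 and 0.131). TRMT10A, the cytosolic relative of TRMT10C, was called higher in MDAMB231, with 8.1, 6.42 and 6.44 CPM against 2.68, 4.54 and 4.24 (log2 fold change 0.82, edgeR adjusted p = 0.0364). It lost the call in 7 of 24 fits that each left out 1 library. The TRMT10A mean was also higher with shADAR1 in BT549 (4.34 against 3.9 CPM) and MDAMB468 (5.99 against 5.14). In HCC1806 it was lower (6.6 against 7.13 CPM). The hairpins overlapped in each of these lines. TRMT10B and ELAC1 were not called in any line. HSD17B4, a peroxisomal member of the family, was called lower in MDAMB231 by DESeq2 and by the block, and in BT549 by the block. DESeq2 called 3.8% of all genes in MDAMB231, and the block called 6.33% lower there and 2.66% lower in BT549.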

How the data were processed

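Total RNA depleted of ribosomal RNA was sequenced for 24 libraries. The submitters' processing notes name STAR, Subread featureCounts and edgeR. Genome build, annotation and strand setting are not given in the sources used here. The authors deposited whole-number counts per gene, with CPM (counts scaled to the library total) and RPKM (CPM per kilobase of exon), per the file headers. The deposited CPM and RPKM differed from values recomputed from the counts by at most 4.7e-11 and 1.3e-10, and only the counts were used in tests.

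Counts were filtered with filterByExpr, scaled by TMM and fitted in edgeR 4.0.16 (R 4.3.3) with 1 coefficient per group. Quasi-likelihood F tests (2-sided) were adjusted by Benjamini-Hochberg over all 21352 genes tested, with 0.05 as the threshold, and the script was tested on simulated data. Log2 fold changes are shADAR1 minus shNT; intervals are 95%. DESeq2 1.42.0 was an alternative. Levels between genes were compared per kilobase of deposited exon length. Named genes were the members, ADAR, genes within 10 kb of a member, the nearest profiles, and, of each list, genes called or with the smallest p. The members and lists were chosen with earlier results of these data known.

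Same-numbered libraries of the 2 hairpins tended to deviate together. Their correlations were 0.242, 0.332 and 0.443 in HCC1806, then 0.204, 0.348 and 0.149 in MDAMB231, and 0.139, 0.158 and 0.25 in BT549. In MDAMB468 they were 0.165, 0.166 and 0.0651, against -0.172 to 0.0392 between differently numbered libraries there. The replicate number within a line, in all 4 lines, is the block in the fits named as such. The main fit, with its p-values and intervals, does not use this pairing. It called fewer genes than the fit with the block in each line and in the average.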

Additional observations from a re-analysis of the deposited data

How the results depend on the processing

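The count of partners called was 0 of 4 in each line, in the average and for the difference between lines under every alternative run: RLE or upper-quartile scaling, no filter, a minimum of 10 counts per library, the replicate block, no mitochondrial or structural RNA genes, only the 6 libraries of a line, DESeq2, and each library left out. Between the shNT groups it was 3 or 4 of 4. HSD17B10 stayed between 0.99 and 1.19 on the log2 scale in BT549, 0.29 and 0.44 in HCC1806, 1.39 and 1.61 in MDAMB231, and 0.35 and 0.50 in MDAMB468.

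The partners' fold changes lay so near 0 that some changed sign without a call. TRNT1 in HCC1806 was 0.01 without mitochondrial and structural RNA genes. TRMT10C in MDAMB468 was -0.01 with upper-quartile scaling and with the 6 libraries of the line. ELAC2 in MDAMB468 was 0.00 without a filter. TRNT1 in MDAMB468 was -0.00 with RLE and DESeq2, and -0.01 with upper-quartile scaling and with its own 6 libraries. The TRMT10C average was -0.01 with RLE and DESeq2, and -0.00 with upper-quartile scaling and with at least 10 counts.

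Leaving out 1 library at a time gave these ranges. ELAC2 ran from -0.13 to 0.06 in BT549, -0.03 to 0.03 in MDAMB468 and -0.05 to 0.00 in the average. PRORP ran from -0.02 to 0.23 in MDAMB231 and -0.08 to 0.10 in MDAMB468. TRMT10C ran from -0.06 to 0.17 in BT549, -0.21 to 0.08 in HCC1806, -0.05 to 0.12 in MDAMB231 and in MDAMB468, and -0.03 to 0.05 in the average. TRNT1 ran from -0.02 to 0.14 in BT549, -0.06 to 0.09 in HCC1806, -0.03 to 0.10 in MDAMB231 and -0.04 to 0.04 in MDAMB468. The cause of these sign changes was not tested.

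The replicate block changed no call of a partner. With it the partners' values kept within 0.01 of those reported, and ELAC2 in HCC1806 reached an unadjusted p of 0.0409 (edgeR adjusted p = 0.353). Over all genes the block called 1098 in BT549, 448 in HCC1806, 2437 in MDAMB231, 354 in MDAMB468, 2820 in the average and 1002 for the difference between lines, against 101, 10, 429, 8, 632 and 5 without it. DESeq2 called 299, 42, 812, 42, 1054 and 125. A minimum of 10 counts per library gave 185 in BT549, 16 in MDAMB468 and 25 for the difference, no filter gave 18 in HCC1806 and 22 for the difference, and the 6 libraries of a line alone gave 226, 0, 117 and 21. With only the 6 libraries of MDAMB231 the calls of MCCC2 (edgeR adjusted p = 0.0513), HSD17B12 (0.151), BCAT2 (0.169) and TRMT10A (0.184) in that line were lost, and without a filter those of BCAT2 (0.0777), TRMT10A (0.0698) and LARS2 (0.134). PRORP, with 71 to 683 counts, had the least precision.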
